A study of Homo sapiens with 3 samples.

Results

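Keratins are the intermediate filament proteins of epithelial cells, and their transcripts were followed here in C28/I2, a line of human chondrocytes that was made to divide without limit by a large T antigen from a virus. Members were the genes whose symbol is KRT followed by digits and at most one letter, which left out the keratin-associated proteins. This gave 55 of the 19215 genes in the authors' table, of which 29 are type I and 26 type II keratins. The measured group is 3 spheroid cultures, grown as cell aggregates and exposed to 0.5% DMSO, a common drug solvent, for 48 h. Whether the 3 were independent cultures is not stated in the labels, so their spread, and p-values, may reflect technical variation. Flat monolayer cultures of C28/I2 are represented by the authors' deposited fold changes alone; the sources used here do not give their treatment. As 1 immortalised line, C28/I2 stands for no range of donors.

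A keratin filament is built from pairs of one type I chain and one type II chain, so an epithelial cell usually makes both types together. Keratins 8 and 18 mark simple epithelia, 5 and 14 the basal layer of stratified epithelia, 6, 16 and 17 injured or rapidly dividing epidermis, and 1 and 10 its upper layers. A further group, the hair keratins, builds the hair shaft, and others the sheaths of the hair follicle. Mesenchymal cells such as chondrocytes rely mainly on vimentin, a filament protein of another type.

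Few cartilage genes were expressed: 2 of 18 chondrocyte markers averaged 1 FPKM (fragments per length of transcript and size of library) or more. SOX9, the transcription factor of cartilage, was at 6.66, 6.66 and 6.81 FPKM in replicates 1, 2 and 3, while COL2A1, the main cartilage collagen gene, was listed at 0.03, 0.01 and 0.01 FPKM. Among epithelial markers, 8 of 26 reached 1 FPKM, with summed levels from 63.6 to 85.1 FPKM. Most of each sum was MUC1, a mucin gene, at 46.86, 56.99 and 68.17 FPKM; without it the sums ran from 16.5 to 16.9 FPKM. Among adhesion markers, CDH1, encoding E-cadherin, averaged 0.0167 FPKM, and EPCAM, an epithelial adhesion molecule gene, 0.193 FPKM. Of the other cadherin and claudin genes in this list, CDH3 and CLDN4 averaged 2.08 and 1.54 FPKM, and CLDN3 and CLDN7 averaged 0.0200 and 0.220 FPKM. Mesenchymal markers reached 1 FPKM in 18 of 19 cases, and their sums ran from 3907 to 5269 FPKM. Most of each sum was FN1, the fibronectin gene, at 3828.12, 3843.10 and 2508.32 FPKM. The total read count of each library is unknown; 12383 to 12416 genes were listed at 1 FPKM or more.

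Promoter sequences, 250 bases before to 50 after the transcript start, were in the RefSeq table (build GRCh38.p14) for 34 of the 55 keratins. They are shown for KRT75, the most abundant keratin on average, for KRT5 and KRT3, which were higher in spheroids, and for KRT34, which was lower. Each is printed 5′ to 3′ on the strand of its gene, and the capitals mark ATAAA, the core of a TATA-like element.
KRT75, chr12:52434322-52434621, minus strand: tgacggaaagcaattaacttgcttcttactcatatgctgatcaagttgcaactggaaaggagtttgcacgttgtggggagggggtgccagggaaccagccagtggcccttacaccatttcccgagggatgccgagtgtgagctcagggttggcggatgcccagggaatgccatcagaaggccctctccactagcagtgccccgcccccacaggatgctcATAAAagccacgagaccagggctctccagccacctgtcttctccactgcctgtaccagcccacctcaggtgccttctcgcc
KRT5, chr12:52520345-52520644, minus strand: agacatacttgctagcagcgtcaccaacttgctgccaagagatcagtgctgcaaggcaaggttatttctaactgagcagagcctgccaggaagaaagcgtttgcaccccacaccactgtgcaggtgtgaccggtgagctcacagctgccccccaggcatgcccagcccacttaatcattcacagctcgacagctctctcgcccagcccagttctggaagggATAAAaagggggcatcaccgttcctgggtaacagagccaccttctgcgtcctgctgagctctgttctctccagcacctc
KRT3, chr12:52796068-52796367, minus strand: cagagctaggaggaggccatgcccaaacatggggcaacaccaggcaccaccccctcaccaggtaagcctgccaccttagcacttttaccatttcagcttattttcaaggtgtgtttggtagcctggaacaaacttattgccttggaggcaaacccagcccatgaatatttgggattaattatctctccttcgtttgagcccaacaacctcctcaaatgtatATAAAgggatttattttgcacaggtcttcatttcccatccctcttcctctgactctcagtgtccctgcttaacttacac
KRT34, chr17:41382257-41382556, minus strand: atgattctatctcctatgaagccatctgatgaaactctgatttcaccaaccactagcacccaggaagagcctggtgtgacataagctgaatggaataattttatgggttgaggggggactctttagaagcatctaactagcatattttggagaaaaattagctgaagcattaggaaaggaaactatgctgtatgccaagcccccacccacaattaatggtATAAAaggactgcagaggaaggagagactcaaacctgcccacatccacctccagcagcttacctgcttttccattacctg
In these promoters ATAAA began 31, 29, 29 and 30 bases before the start, in the order printed. On the strand of the gene, ATAAA began between 40 and 20 bases before the start in 24 of 34 keratin promoters (70.6%). The same was true of 1351 of 27305 promoters in the table (4.95%). Anywhere in the window and on either strand, ATAAA occurred in 94.1% of keratin promoters and 35.8% of all. The 2 keratins without it were KRT8 and KRT40. The KRT8 start in the table lies inside the annotated span of the gene, and without KRT8 the shares were 97.0% anywhere and 72.7% near the start. KRT8 alone was left out, and it lacked ATAAA, so its removal could only raise these shares. For KRT40, the first of several listed starts was used. The letters TGANTCA, the core bound by AP-1 factors, occurred on either strand in none of the 34 keratin windows and in 7.76% of all windows; the motifs were chosen after the sequences and fold changes were seen. The element stood in front of keratins at 0 (KRT24, KRT28), of the abundant KRT75, of KRT3, KRT5 and KRT82, called higher, and of KRT34, called lower. The other called keratins (KRT81, KRT80, KRT86, KRT16 and KRT6B) and the abundant KRT18 were among those without a promoter sequence.

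The spheroids expressed a short list of keratins. With a mean of at least 1 FPKM taken as expressed, 9 of 55 keratins (16.4%) qualified, against 64.6% of all genes in the table. Of the rest, 5 averaged from 0.5 to under 1 FPKM, 11 from 0.1 to under 0.5, and 21 were above 0 but under 0.1. The remaining 9 (KRT24, KRT25, KRT26, KRT27, KRT28, KRT37, KRT74, KRT83 and KRT85) were listed at 0 in the 3 libraries. The keratins summed to 338.04, 251.33 and 274.64 FPKM in replicates 1, 2 and 3. Vimentin (VIM) alone stood at 2047.47, 1870.13 and 1917.10 FPKM, or 6.83 ± 0.705 times the keratin sum (SD, n = 3).

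A group of 4 genes held most of the keratin pool: KRT75, KRT81, KRT18 and KRT8 made up 92.1%, 89.9% and 89.2% of the summed keratin FPKM in replicates 1, 2 and 3. The leading pair are a follicle sheath keratin and a hair shaft keratin. KRT75, a type II keratin of the companion layer around the hair shaft, was at 104.28, 100.84 and 102.69 FPKM, a mean of 103 ± 1.72 (SD, n = 3). KRT81, a type II keratin of the hair cortex, was at 141.90, 61.60 and 73.69 FPKM, a mean of 92.4 ± 43.3 (SD, n = 3). The libraries barely differed in KRT75, whereas KRT81 was 2.10 times the mean of the others in replicate 1. Their order therefore changed: KRT81 was 1.36 times KRT75 in replicate 1, but 0.611 and 0.718 times in replicates 2 and 3. Among all genes of the table, KRT75 ranked 838 and KRT81 935 by mean level.

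The simple epithelial pair came next. KRT18, the type I chain, was at 46.93, 44.39 and 47.97 FPKM, and its type II partner KRT8 at 18.34, 19.24 and 20.52 FPKM. KRT18 exceeded KRT8 in 3 of 3 libraries, by 2.56, 2.31 and 2.34 times. Both genes have processed copies elsewhere in the genome, so reads may be shared with those copies. Their annotated spans overlap in RefSeq, but this compares whole spans without exons or strand, and sharing of reads between the pair was not tested. The other simple type II keratin, KRT7, was at 0.98, 1.22 and 1.43 FPKM, and its frequent type I partner KRT19 at 0.33, 0.27 and 0.12 FPKM. KRT20, of the gut lining, did not exceed 0.04 FPKM.

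Below these stood keratins of stratified epithelia, in levels of a few FPKM. KRT10, the type I keratin of the upper epidermis, was at 9.5, 8.54 and 10.41 FPKM, yet its type II partner KRT1 was listed at 0, 0.03 and 0 FPKM. KRT79, a type II keratin, was at 4.61, 5.17 and 6.21 FPKM. KRT15, a type I keratin of basal cells, was at 2.13, 2.26 and 2.16 FPKM, and KRT16, a type I keratin of injured epidermis, at 1.68, 1.5 and 2.42 FPKM. The libraries of KRT15 and KRT16 overlapped, so these neighbours in the order were not separated by their spread. From KRT18 down to KRT15, each keratin stood above the next in every library.

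**Figure D1:**
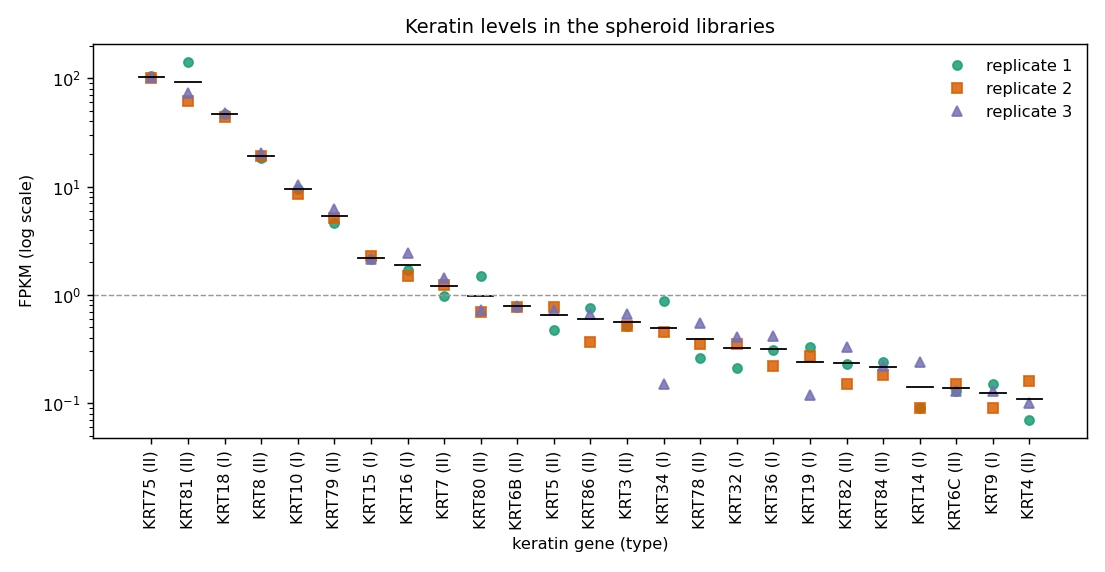
FPKM (log scale) of the 25 keratins that averaged at least 0.1 FPKM, in each of the 3 spheroid libraries (points) with their mean (bar); the type is in parentheses and the dashed line is 1 FPKM. KRT75, KRT81, KRT18 and KRT8 stand above 10 FPKM, and the points of KRT81, KRT80 and KRT34 are spread more widely than those of KRT75 or KRT18.

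Type II transcripts outweighed type I. Summed by type, they reached 275.23, 192.51 and 209.75 FPKM for type II against 62.81, 58.82 and 64.89 FPKM for type I. The ratio was 4.38, 3.27 and 3.23 in replicates 1, 2 and 3. It rested on KRT81 and KRT75. Without them the ratio was 0.463, 0.511 and 0.514, so that type I was the larger sum. No type I keratin of the hair shaft or follicle sheath matched the level of either. KRT34 was the highest of the 11 of the shaft, at a mean of 0.493 FPKM, and the 4 of the sheath were listed at 0. A set of 3 libraries cannot reach a p under 0.05 in a paired permutation test, where the smallest two-sided p is 0.25, so these ratios are descriptions.

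Between culture forms, keratins moved in both directions, and the share called was near that of all genes. A gene was called at the authors' adjusted p under 0.05 with at least a 2-fold change. In the authors' deposited table, 5 of 51 tested keratins were called higher in spheroids (9.80%) and 4 lower (7.84%), against 11.5% and 9.34% of the 18467 tested genes. In either direction 9 keratins (17.6%) were called, with 20.8% of all genes. The other 42 tested keratins were not past the threshold, and 4 had no fold change. In such bulk samples, fewer cells making a transcript and less transcript per cell cannot be told apart.

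The keratins called lower were KRT81, KRT80, KRT86 and KRT34. KRT81 had a log2 fold change of -3.18 by the authors' deposited table, a level 9.09 times below that in monolayer (DESeq2 adjusted p = 1.11e-14). Its spheroid mean and this fold together place the monolayer level near 840 FPKM, an approximate figure because the fold is on the scale of the authors' test. On the same reckoning KRT75 would stand near 169 FPKM in monolayer, so KRT81 would lead the keratins there. KRT80, a type II keratin of many epithelia, was at 1.49, 0.69 and 0.73 FPKM in the spheroids and had a log2 fold change of -3.05 by the authors' deposited table (DESeq2 adjusted p = 8.94e-46).

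KRT86, another type II hair keratin, was at 0.75, 0.37 and 0.66 FPKM, with a log2 fold change of -1.62 by the authors' deposited table (DESeq2 adjusted p = 6.41e-06). KRT86 is a near-identical copy of KRT81, and the annotated spans of the pair overlap in RefSeq. KRT81 was 189, 166 and 112 times as abundant in replicates 1, 2 and 3, and reads of such a pair can be shared, so the KRT86 value is uncertain. KRT83, a further close relative, was listed at 0. KRT34, a type I hair keratin, was at 0.88, 0.45 and 0.15 FPKM and had a log2 fold change of -1.88 by the authors' deposited table (DESeq2 adjusted p = 0.000352). Its mean of 0.493 FPKM became 0.30 without replicate 1.

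Replicate 1 was the highest library for all 4 keratins called lower. Among all genes called lower, 59.7% were likewise highest in replicate 1; the same libraries enter the authors' comparison. The keratins called higher were highest in replicate 3 in 4 of 5 cases and in replicate 2 in the other, and 43.5% of all genes called higher were highest in replicate 3. One of these cases, KRT6B, was at 0.78, 0.78 and 0.79 FPKM, a difference at the limit of rounding. KRT81 varied more than genes of its level: its coefficient of variation was 46.9%, and 1 of the 823 other genes within 1.5 times its mean varied as much. KRT75, in contrast, had a coefficient of 1.68%, with a median of 6.79% among genes of like level. Without KRT81 the keratin sums were 196.14, 189.73 and 200.95 FPKM. The part of replicate 1 in the fold changes was not tested, since they come from the authors' comparison.

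**Figure D2:**
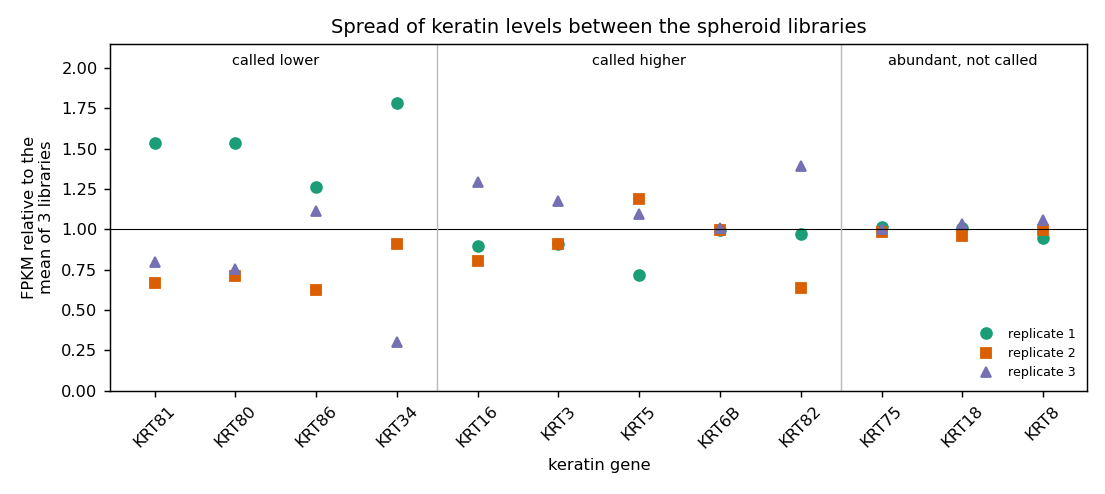
FPKM in each spheroid library divided by the mean of the 3 libraries, for the 4 keratins called lower, the 5 called higher and 3 abundant keratins that were not called. Replicate 1 lies above the mean for KRT81, KRT80, KRT86 and KRT34, and the 3 libraries nearly coincide for KRT75, KRT18 and KRT8.

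The keratins called higher were KRT16, KRT3, KRT5, KRT6B and KRT82, all at low levels. KRT16 had a log2 fold change of 6.60 by the authors' deposited table (DESeq2 adjusted p = 4.46e-07) and was the one member of this group that averaged above 1 FPKM, at 1.87 ± 0.488 (SD, n = 3). KRT3, the type II keratin of the cornea, was at 0.51, 0.51 and 0.66 FPKM, with a log2 fold change of 6.40 by the authors' deposited table (DESeq2 adjusted p = 3.94e-06). KRT5, the type II keratin of basal cells, was at 0.47, 0.78 and 0.72 FPKM, with a log2 fold change of 4.72 by the authors' deposited table (DESeq2 adjusted p = 0.000139). The spheroid means of these genes and their folds place the monolayer levels near 0.0192, 0.00662 and 0.0250 FPKM, so the size of each fold depends on a level close to 0 and is poorly fixed.

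KRT6B, a type II keratin of injured epidermis, was at 0.78, 0.78 and 0.79 FPKM, with a log2 fold change of 2.09 by the authors' deposited table (DESeq2 adjusted p = 0.00114). Its spheroid mean and this fold place the monolayer level near 0.184 FPKM, also low. KRT82, of the hair cuticle, was at 0.23, 0.15 and 0.33 FPKM, with a log2 fold change of 2.19 by the authors' deposited table (DESeq2 adjusted p = 0.0483), and was not called at an adjusted p under 0.01. Its mean and fold place the monolayer level near 0.0517 FPKM, so this fold too is poorly fixed. KRT6B and KRT16, a type II and a type I keratin of injured epidermis, were both called higher. Other partners of keratins called higher were scarce. KRT6A, a partner of KRT16, was listed at 0, 0.09 and 0.03 FPKM, KRT12, the partner of KRT3, at 0.08, 0.04 and 0.04 FPKM, and KRT14, the partner of KRT5, at 0.09, 0.09 and 0.24 FPKM. KRT17 was listed at 0.10, 0.15 and 0 FPKM. None of KRT6A, KRT12, KRT14 and KRT17 passed the threshold by the authors' deposited table. KRT6A, KRT6B and KRT6C, and likewise KRT14, KRT16 and KRT17, are close copies that can share reads.

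The abundant keratins other than KRT81 fell by less than 2-fold. The log2 fold changes by the authors' deposited table were -0.72 for KRT75, -0.70 for KRT8 and -0.47 for KRT18, with DESeq2 adjusted p of 5.47e-17, 1.09e-07 and 1.99e-05. They were 1.64, 1.62 and 1.39 times lower in spheroids. KRT79 went the other way at 0.92 by the authors' deposited table, 1.90 times higher (DESeq2 adjusted p = 4.36e-05). With no minimum fold, the authors' deposited table had 6 keratins higher (11.8%) and 7 lower (13.7%), against 26.0% and 24.5% of all tested genes. In either direction these were 25.5% of keratins and 50.4% of genes. Of the tested keratins, 42 of 51 averaged under 1 FPKM, against 6057 of 18467 genes. These shares therefore set genes of unlike level side by side, and no share matched for level was computed. KRT10, KRT15 and KRT7 had log2 fold changes of -0.21, -0.49 and -0.74 by the authors' deposited table and did not pass (DESeq2 adjusted p = 0.212, 0.106 and 0.0842).

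By class, the hair shaft keratins held 3 of the 4 called lower and 1 of the 5 called higher, with 12 of 16 tested members not past the threshold. Stress-induced keratins had 2 of 5 higher, basal keratins 1 of 3 and suprabasal keratins 1 of 12, with none lower in these classes, where all tested genes had 11.5% higher and 9.34% lower. Classes this small cannot be set apart from those shares. Neither the 5 simple epithelial nor the 7 tested follicle sheath keratins had a member past the threshold. The median log2 fold change over the 51 tested keratins was 0.72 by the authors' deposited table, against 0.04 over all tested genes. This middle value is that of KRT1, KRT39 and KRT76, each above 0 in a single library, at 0.03 or 0.04 FPKM. The median therefore rests on keratins near 0 and does not show a shift of the family. For the 51 keratins it was then split by level. The median was 0.76 for the 42 keratins under 1 FPKM and -0.49 for the 9 at 1 FPKM or more, the opposite sign. This split uses the spheroid level, which enters the fold change itself: KRT16 averaged over 1 FPKM in spheroids although its fold places it far lower in monolayer, and KRT80, KRT86 and KRT34 averaged under 1 FPKM after a fall. The split is therefore a description and does not show that level and direction are linked. Over all genes the medians were 0.13 and 0.02.

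**Figure D3:**
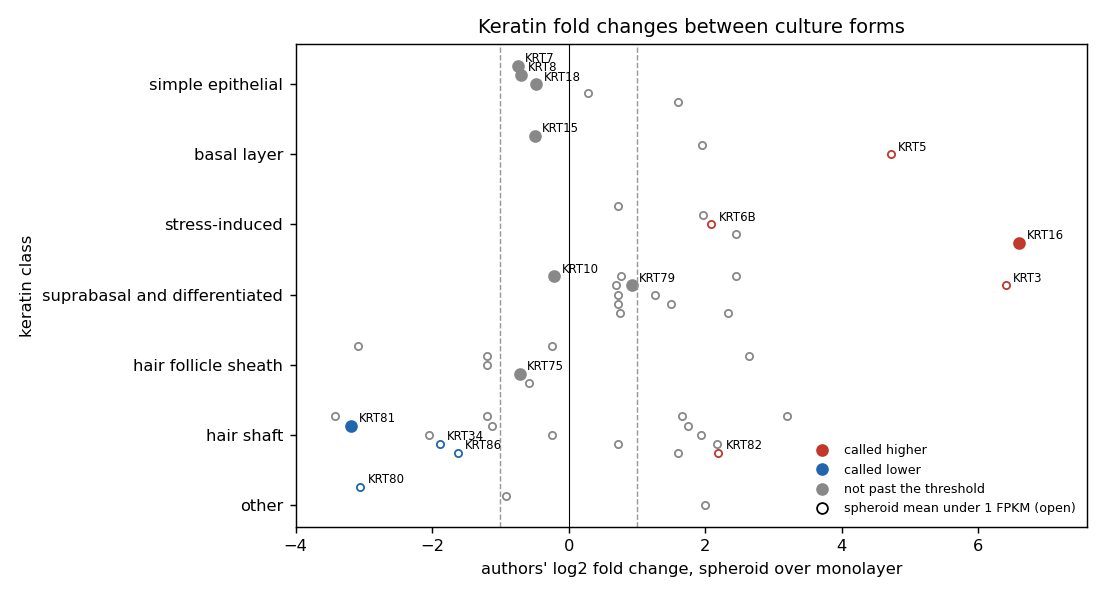
Log2 fold change of spheroid over monolayer by the authors' deposited table for the 51 tested keratins, by class; filled points average at least 1 FPKM in spheroids, open points less, and dashed lines mark a 2-fold change. The abundant keratins lie left of 0 apart from KRT16 and KRT79, and most points right of 2-fold are open.

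The type II keratins and KRT18 lie in one row on chromosome 12, and the other 28 type I keratins on chromosome 17. In RefSeq order, the 3 type II keratins called lower were places 1, 3 and 4 of the 27 on chromosome 12 (KRT80, KRT86 and KRT81), with KRT7 between them. As KRT86 and KRT81 overlap and can share reads, their calls may not be independent. The type II keratins called higher were at places 8, 10, 13 and 22. High expression was not shared by neighbours: KRT75, at place 9, stood between KRT82 and KRT6B, both under 1 FPKM. KRT8 and KRT18, at places 26 and 27, were the one adjacent pair in which both averaged over 10 FPKM. On chromosome 17, KRT34 and KRT16 were the members called, at places 15 and 27, and KRT33A, KRT33B and KRT31 beside KRT34 averaged under 0.1 FPKM.

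**Figure D4:**
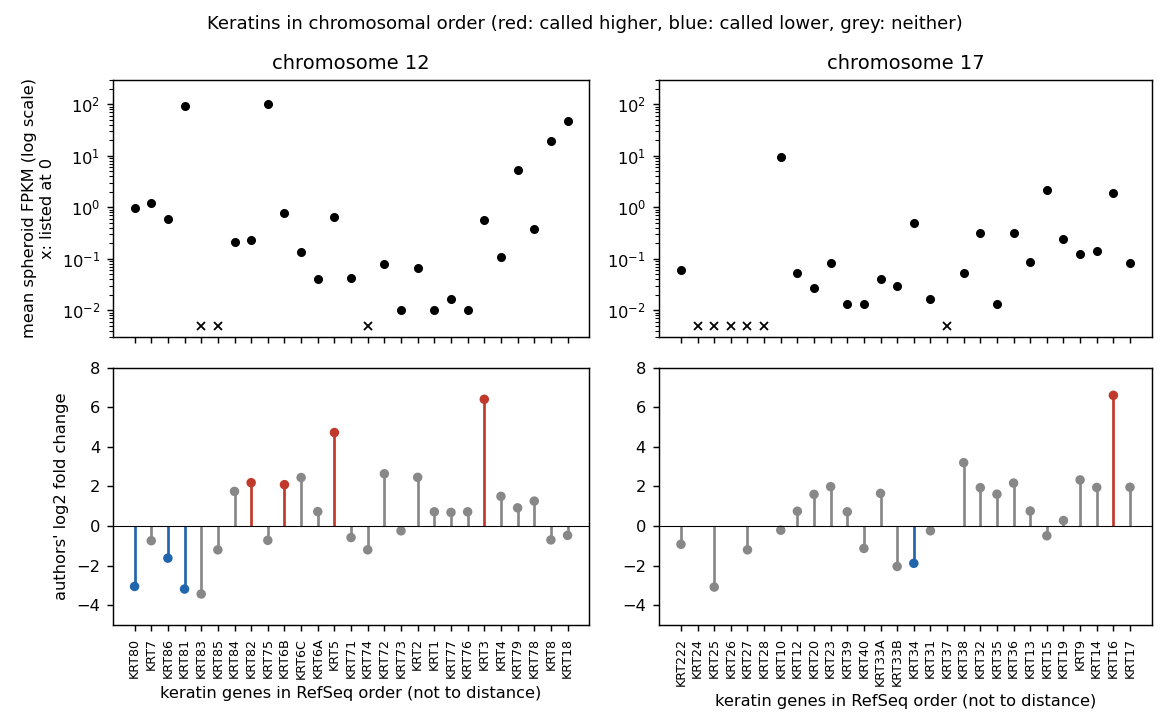
Mean spheroid FPKM (top, log scale; crosses are keratins listed at 0) and the authors' log2 fold change (bottom) of the keratins in their RefSeq order on chromosomes 12 and 17; spacing is by order, not distance. The keratins called lower (blue) on chromosome 12 lie at its left end, where KRT86 and KRT81 overlap and can share reads. Those called higher (red) on chromosome 12 are at places 8, 10, 13 and 22.

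The counts for the gene lists that follow stand beside 11.5% of all tested genes called higher and 9.34% called lower, and none was tested against these shares. Among desmosome components and keratin linkers, 3 of 22 were higher and 1 lower by the authors' deposited table, with a median log2 fold change of 0.19. DSP, encoding desmoplakin, which ties keratins to desmosomes, was at 3.62, 3.31 and 3.32 FPKM and was not past the threshold. The members called were DSG4, a hair desmoglein gene, at 3.49, JUP, encoding plakoglobin, at 1.74, ITGB4, an integrin gene of hemidesmosomes, at 1.27, and EPPK1, encoding a keratin-binding plakin, at -2.54 by the authors' deposited table. Of these, ITGB4 alone averaged 1 FPKM or more. Other intermediate filaments had 1 of 15 higher and 2 lower by the authors' deposited table, with a median log2 fold change of -0.47. The nuclear lamin genes LMNB1 and LMNB2 were at -3.11 and -2.18 and the neuronal filament gene PRPH at 1.62 by the authors' deposited table; VIM, at -0.67, was not past the threshold.

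Cornified envelope genes, which form the outer coat of epidermal cells, had 4 of 20 tested members higher and none lower, with a median log2 fold change of 0.84 by the authors' deposited table. These were CASP14, an epidermal protease gene, at 8.74, SPRR2A, a cross-linked envelope protein gene, at 3.85, and the protease inhibitor genes SERPINB3 and SERPINB4, which are close copies, at 3.63 and 3.46 by the authors' deposited table. They averaged 2.05, 5.30, 3.18 and 7.69 FPKM in spheroids. The most abundant members, SBSN and CNFN, averaged 57.5 and 11.1 FPKM and were not past the threshold. Their log2 fold changes were -0.04 and 0.38 by the authors' deposited table. Of the 23 genes listed, 7 averaged 1 FPKM or more, so the median is largely over genes below that level and does not show a shift of the list. The CASP14 fold, 426 times, places its monolayer level close to 0, so the size of that fold is poorly fixed. Epithelial markers had 4 of 26 higher and 2 lower, with a median of -0.13 by the authors' deposited table. Those higher were ST14, a membrane protease gene, at 3.10, its inhibitor SPINT1 at 2.54, the transcription factor gene ELF3 at 2.50 and the tight junction gene LSR at 1.99 by the authors' deposited table. Those lower were SFN at -2.05 and ESRP2, a splicing factor gene, at -1.52 by the authors' deposited table. The part of these genes in the keratin differences was not tested.

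Of 18 regulators of keratin genes, 3 were higher and 1 lower by the authors' deposited table, with a median log2 fold change of 0.13. Beside ELF3 these were the AP-1 subunit JUNB at 2.48, CEBPB, a factor of epidermal and inflammatory genes, at 1.39 and the AP-1 subunit FOSL1 at -1.04 by the authors' deposited table. JUNB averaged 143 ± 20.7 FPKM and FOSL1 80.8 ± 4.21 (SD, n = 3). TP63, the master regulator of stratified epithelia, was at 0.55, 0.39 and 0.28 FPKM and was not past the threshold. Keratin-associated proteins, which embed hair keratins in the hair shaft, were listed for 42 genes, of which 28 were tested and 1 averaged 1 FPKM or more. This was KRTAP2-3, at 2.97, 1.54 and 1.61 FPKM, which was also the 1 of 28 called, beside 20.8% of all tested genes, with a log2 fold change of -2.71 by the authors' deposited table (DESeq2 adjusted p = 2.53e-18), and was named after its values were seen. Like KRT81 and KRT80, it was highest in replicate 1. Mesenchymal markers had 6 of 19 higher and 2 lower, and chondrocyte markers 2 of 17 tested higher and 3 lower, by the authors' deposited table. COL1A1, the type I collagen gene, averaged 471 ± 28.6 FPKM (SD, n = 3) and ACAN, the main proteoglycan of cartilage, 0.730 ± 0.0400 FPKM (SD, n = 3).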

How the data were processed

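RNA sequencing values came from 3 spheroid samples of C28/I2. Per the file headers, the authors deposited FPKM values, rounded to 2 decimals, for every library. Log2 fold changes, p-values and adjusted p-values (q-values) are, per the file headers, those of the authors' DESeq2 comparison. The submitters' processing notes name Bowtie2 2.2.5, RSEM 1.2.12, DESeq2 1.4.5 and GRCh38.p13 without their roles; the sources used here do not give strandedness. Positive fold changes mean higher in spheroids: of 358 tested genes at 0 in the 3 spheroid libraries, 356 had one below 0. A further 3 columns of single libraries match no listed sample and were not used, so the comparison was not recomputed, and no standard error accompanies it.

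Here, members were found by symbol, and means, SDs, shares, ratios and counts were computed from FPKM as deposited. FPKM carries no total count, so the depth is unknown and neither intervals nor floors are given. FPKM is scaled by length and library total, and values near 0 are coarse at 2 decimals. Scale factors by median ratio were 1.00, 0.995 and 1.01. Calls used an adjusted p under 0.05 and a log2 fold change of 1 or more in size. Named genes were keratins at 1 FPKM or more, those called, members of fixed type II and type I pairs, up to 4 called members of each companion list per direction, and fixed markers; some of them are given in counts only. Members, lists and rules were chosen with earlier results of these data known. Promoters are RefSeq's, the first listed start of each gene. Alternatives were other thresholds, levels, scaling, a pseudocount of 0.1 in place of 1 on the log2 scale, and leaving out each replicate. Python 3.11.15, NumPy 2.4.6, pandas 2.3.3 and matplotlib 3.10.9 were used.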

Additional observations from a re-analysis of the deposited data

How the results depend on the processing

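At an adjusted p under 0.01, or with fold changes centred on the median, the counts of keratins called higher and lower stayed within 1.5 times those reported. Keratins called lower numbered 7 with no minimum fold and 2 with a minimum log2 fold change of 2. Among genes with at least 1 FPKM, 1 keratin was higher and 1 lower. Of 73 comparisons of a named fold change under another setting, 3 lost the call (KRT82 at an adjusted p under 0.01, KRT34 and KRT86 at a minimum of 2), 4 gained it (KRT75, KRT18, KRT8 and KRT79 with no minimum) and none changed sign. The median keratin fold change was -0.49 over members at 1 FPKM or more, against 0.72 over all tested members; the level used to choose these members enters the fold change, so called members pass or miss it through the change itself. Keratins counted as expressed numbered 14 at 0.5 FPKM and 25 at 0.1 FPKM. Leaving out each replicate gave 9 to 10 keratins at 1 FPKM or more, a type II to type I ratio of 3.25 to 3.83 and a share of 89.6% to 91.0% in the 4 most abundant. That ratio was 0.496 without KRT81 and KRT75, and 2.12 without KRT81, KRT83, KRT86, KRT6A, KRT6B and KRT6C, members that have near-identical copies. Both sets were chosen after seeing the data. The second kept KRT14, KRT16 and KRT17, also close copies, and KRT8 and KRT18, which have processed copies. The median deviation of replicate 1 over keratins called lower, on the log2 scale, was 0.36 with a pseudocount of 1 and 0.68 with 0.1. An alternative based on protein identity was not run, because protein sequences were not used here. No paired analysis was possible because the samples form 1 group, so no groups share replicate numbers; the ratios within a library are described in the text without a test. Unknown depth limits what can be said of the keratins listed at or near 0.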
